A study of Homo sapiens with 6 samples.

Results

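The genes described here are the replication-dependent histone genes of 786-O cells and of a sunitinib-resistant line of these cells. They were taken as the rows of the deposited count table whose symbol begins with HIST1H, HIST2H, HIST3H or HIST4H. Of 90 such rows, 15 with pseudogene names were left out, which kept 75 of 54261 gene rows. The symbol gives both the cluster and the histone type. HIST1 on chromosome 6 held 55 of the genes, HIST2 15 and HIST3 4, both on chromosome 1, and HIST4 1 on chromosome 12. By type there were 6 H1, 17 H2A, 23 H2B, 14 H3 and 15 H4 genes. RefSeq lists 5 of the 75 as pseudogenes although their symbols do not say so, and these stayed in.

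Replication-dependent histone genes supply the core histones H2A, H2B, H3 and H4 and the linker histone H1 that package newly copied DNA. Their mRNAs accumulate in S phase and are degraded when DNA synthesis stops. Most of these mRNAs have no introns and end in a conserved stem-loop, bound by SLBP, in place of a poly(A) tail. Many H2A and H2B genes stand head to head and share the DNA between their start sites. Transcription is driven by NPAT at histone locus bodies, with HINFP acting on H4 genes and OCT1, the product of POU2F1, acting on H2B genes.

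The resistant group was the 7R line, called sunitinib-resistant in the labels and titled Sun-7R, sequenced as 3 libraries. The control group was 786-O, an established line of human clear-cell renal carcinoma, titled Sun-7C, also sequenced as 3 libraries. Sunitinib inhibits the VEGF and PDGF receptors and several other kinases. Both lines were grown in 1640 medium, and the labels name no other treatment or genotype. The labels leave out whether sunitinib was present at harvest, whether 7R is 1 clone, and whether each library had a culture of its own. The p-values therefore rest on a spread between libraries that may be technical. The RNA is labelled as total RNA, and a poly(A) selection or an rRNA depletion is not given in the sources used here, although these mRNAs mostly lack a poly(A) tail.

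The resistant libraries held 38074069, 38131634 and 37919629 counts, and the control libraries 48264905, 49075320 and 52221491. Levels are given as CPM, each library's counts brought to the same total after TMM scaling. Where a library has 0 counts of a gene, the level may be as high as 3 counts, which is 0.0663 to 0.0707 CPM by library, for counting error only. Resistant replicate 1 stood apart within its line, with 62.9 and 60.1 for chi-square per degree of freedom in its comparisons with the other resistant libraries, against 8.94 between those. Control replicate 1 also stood apart, though less, with 26.5 and 35.5, against 12.4 between the other control libraries. The labels' extraction text names a brain region, while all other labels name renal cancer cells. All 9 renal and epithelial markers examined passed the low-count filter, with summed levels of 3406 to 4280 CPM in resistant and 12443 to 13628 CPM in control libraries. Of 10 brain markers, MBP, AQP4, GAD1 and RBFOX3 passed it, and GAD2, MOG and OLIG1 were at 0 counts in every library. The brain markers summed to 40.58 to 44.38 CPM in resistant and 29.03 to 31.44 CPM in control libraries, mostly from MBP. In the resistant line MBP and AQP4 were higher and GAD1 was lower at an adjusted p below 0.05 (edgeR), and RBFOX3 was neither.

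The 3′ stem-loop that ends these mRNAs is shown first, because the rule by symbol did not use it. The consensus histone stem-loop was found after the coding part in GENCODE 29 transcripts of 33 of the 75 genes. In the other 42 no match was found, and the annotated transcripts of 33 of these have fewer than the 16 bases of the stem-loop after their coding part, so it could not be looked for there. The lines below give the 5 forms, with the stem in capitals and the loop in lower case, each under the name of 1 gene that carries it.

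HIST1H2AC: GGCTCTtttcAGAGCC
HIST1H2BF: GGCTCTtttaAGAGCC
HIST1H2AG: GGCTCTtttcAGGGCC
HIST1H4E: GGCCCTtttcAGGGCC
HIST2H4A: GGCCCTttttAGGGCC

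The form shown for HIST1H2AC was the most frequent and was found in 18 genes, none of them H4. The forms shown for HIST1H4E and HIST2H4A were found in 5 and 3 genes, all of them H4.

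Replication-dependent histone transcripts were lower in the resistant line, in every cluster that was expressed and in every histone type. Of the 75 genes, 69 had counts in some library and 61 passed the low-count filter and were tested. Of these 61, 60 were lower and 0 were higher at an adjusted p below 0.05 (edgeR's quasi-likelihood test with Benjamini-Hochberg adjustment over all genes). Over all 16642 genes tested, 36.9% were lower and 39.3% were higher. The same 60 genes did not overlap between the lines, lower in every resistant library, as did 39.0% of all genes tested. The median log2 fold change of the 61 was -2.19 (quartiles -2.39 and -1.98), and that of all genes tested was 0.05. In bulk RNA, fewer cells in S phase and less histone RNA per cell cannot be told apart.

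Without adjustment for GC content and length the falls were close to one another in size. Of the 61, 52 lay within 0.5 of the median on the log2 scale, 60 were at least 2-fold lower and 44 at least 4-fold lower, a size reached by 4.73% of all genes tested. The order of the levels was also kept, with a Spearman correlation of 0.96 between the lines' mean CPM over the 61 genes, which share libraries and lengths. The 75 genes together took 0.720%, 0.471% and 0.483% of the counts in the resistant libraries, against 1.58%, 1.96% and 2.02% in the control libraries. Resistant replicate 1 was the highest resistant library for 59 of the 61 genes, and control replicate 1 the lowest control library for 58. Even so the lines stood well apart.

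**Figure D1:**
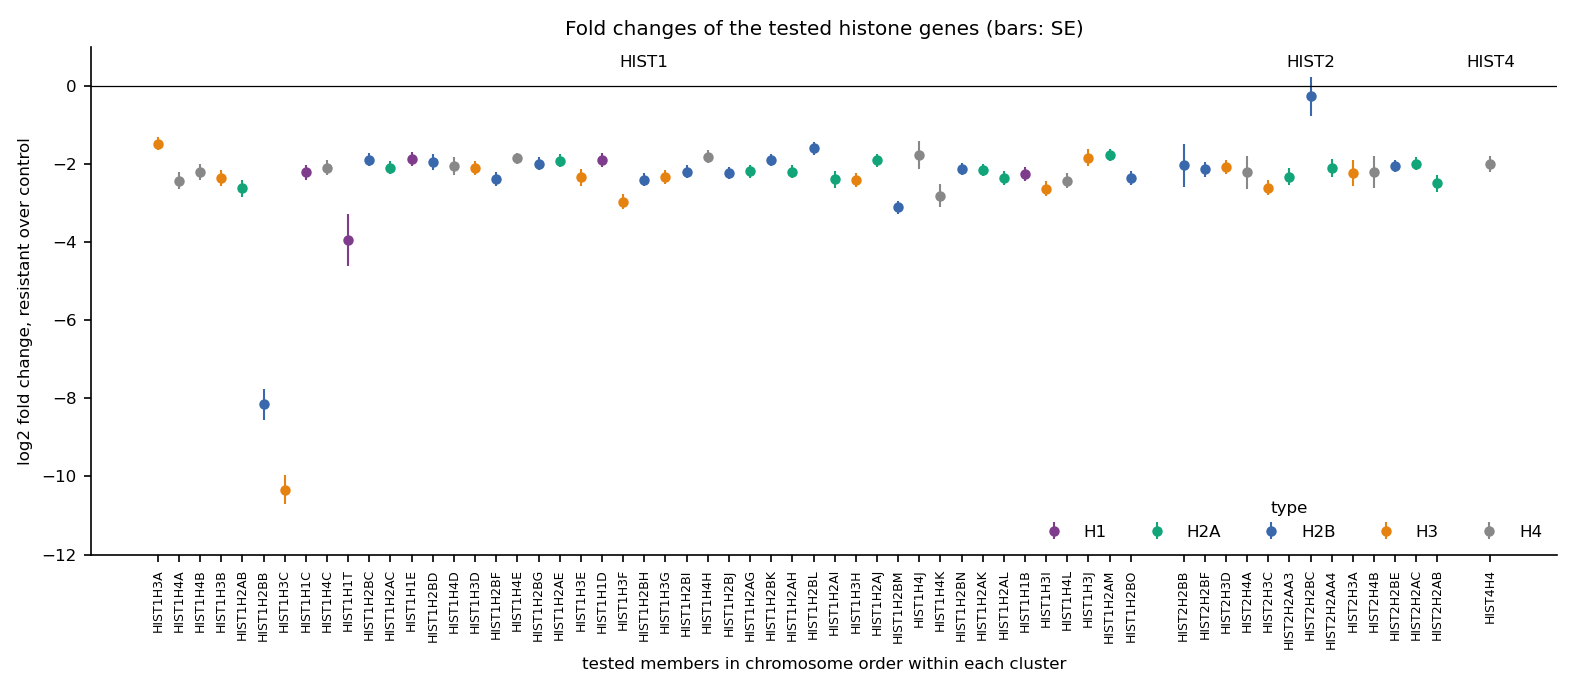
Log2 fold change (resistant over control, vertical axis) of the 61 tested histone genes in chromosome order within HIST1, HIST2 and HIST4 (horizontal axis), coloured by type, with bars for the SE. Nearly all points lie near -2, HIST1H3C at -10.33 and HIST1H2BB at -8.15 lie far below, and HIST2H2BC at -0.26 lies nearest to 0.

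The size of the falls depended on an adjustment for GC content and transcript length together. The Spearman correlation of log2 fold change with GC content was -0.69 across 14201 tested genes, which are not independent of each other. With a smooth trend on GC content and length taken out of every library, 58 of the 61 were lower and 0 were higher, against 32.6% lower and 34.4% higher of all genes tested in that fit. The median log2 fold change was then -1.41, a smaller fall, with 0.02 over all genes. Only 33 of the 61 then lay within 0.5 of that median, 47 were at least 2-fold lower and 14 at least 4-fold lower. The adjustment did not weaken every fall, since 9 of the 61, all called lower, fell further with it than without. Scaling by library size in place of TMM, without this adjustment, left 19 at least 4-fold lower. Among the 61 genes themselves the unadjusted fold change did not follow GC content, with a Spearman correlation of -0.07, while the adjusted one did, at 0.69. Annotated transcripts of the 61 genes had 41.6% to 67.4% GC, and their coding parts had 48.3% to 67.4%. With the GC content and length of the coding part in place of the transcript's, 58 were lower, the median was -1.19, 51 lay within 0.5 of it and 4 were at least 4-fold lower. GC content and length were not adjusted for separately. Values called adjusted for GC and length below come from the fit with annotated transcripts.

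**Figure D2:**
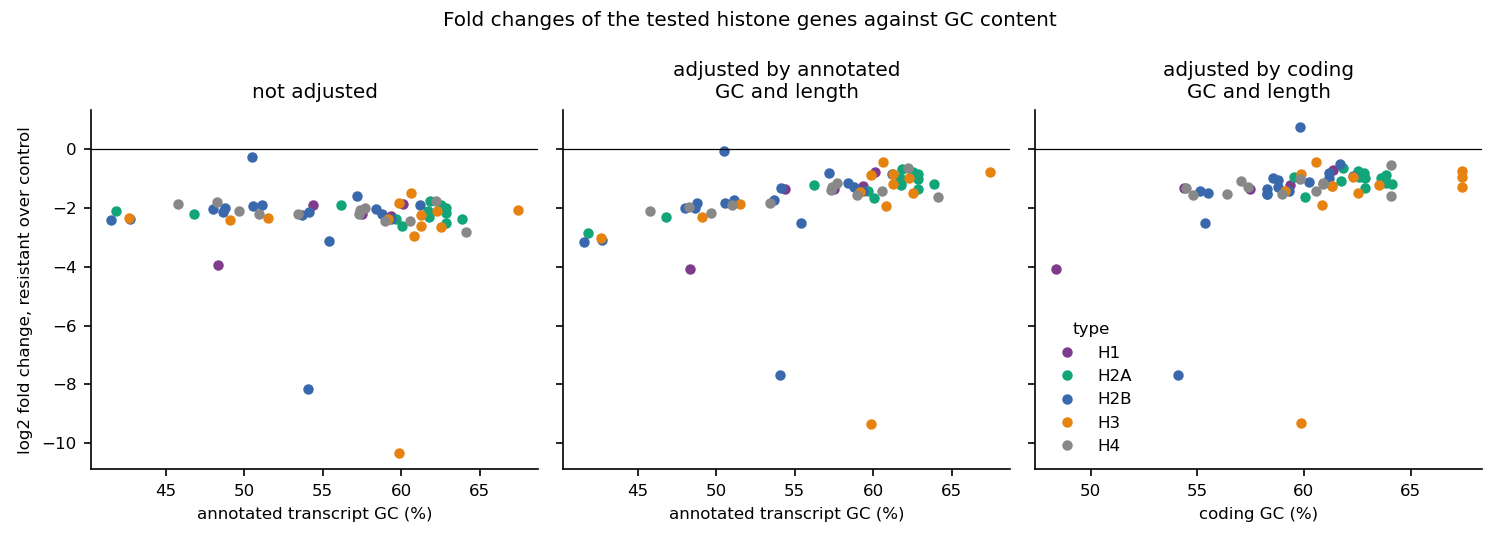
Log2 fold change (resistant over control, vertical axes) of the 61 tested histone genes against GC content in percent (horizontal axes), without adjustment, adjusted by annotated GC content and length, and adjusted by those of the coding part. The medians of the panels are -2.19, -1.41 and -1.19, and HIST1H3C and HIST1H2BB stay lowest in each.

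By cluster, all 47 tested HIST1 genes were lower, with a median log2 fold change of -2.20, as were 12 of 13 HIST2 genes, with a median of -2.13 (adjusted for GC and length -1.50 and -1.19). HIST1 summed to 5403, 3571 and 3662 CPM in resistant libraries, against 14747, 18812 and 19878 CPM in control libraries. HIST2 summed to 897, 602 and 619 CPM in resistant libraries, against 2442, 3216 and 3332 CPM in control libraries. The lines did not overlap in either cluster. HIST1 took between 84.9% and 85.1% of the histone counts in resistant libraries and between 84.8% and 85.3% in control libraries.

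HIST4H4, the H4 gene on chromosome 12, had 46.1, 26.4 and 31.3 CPM in resistant libraries, against 104, 166 and 145 CPM in control libraries. Its log2 fold change was -2.0 ± 0.21 (SE, adjusted p = 3.47e-06), beside the medians of -2.20 and -2.13 in the large clusters. HIST3 was barely expressed in either line. HIST3H2BB had 2 counts in 1 resistant library and 3 counts in 1 control library, and HIST3H2A, HIST3H2BA and HIST3H3, the testis H3 gene, were at 0 throughout. No HIST3 gene was tested.

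Within HIST1, the chromosome 6 genes fall into stretches divided by gaps of over 200000 bases. In chromosome order, all 27 tested genes of the largest stretch were lower with a median of -2.19, all 4 of the next with -2.19, and all 16 of the last with -2.31. The medians were -1.84, -1.43 and -1.28 after adjustment for GC and length, with 15 of the last 16 genes still lower. No difference between stretches was tested. Ahead of these stretches lie HIST1H2AA and HIST1H2BA, genes of the testis, which had at most 1 count in any library.

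By type, the lines did not overlap in the summed level of any of the 5 types. H1 genes summed to 926, 589 and 604 CPM in resistant libraries, against 2485, 3358 and 3509 CPM in control libraries. H2A genes summed to 2170, 1502 and 1599 CPM in resistant libraries, against 5582, 7229 and 7747 CPM in control libraries. H2B genes summed to 1797, 1204 and 1170 CPM in resistant libraries, against 5157, 6320 and 6547 CPM in control libraries. Resistant replicate 1 was the highest resistant library in each. H3 genes summed to 657, 406 and 413 CPM in resistant libraries, against 2119, 2691 and 2810 CPM in control libraries. H4 genes summed to 796, 498 and 525 CPM in resistant libraries, against 1950, 2595 and 2742 CPM in control libraries.

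These sums give log2 ratios, resistant over control, of -2.14 for H1, -1.96 for H2A, -2.11 for H2B, -2.37 for H3 and -2.0 for H4. The tested genes gave medians of -2.21 for 5 H1, -2.17 for 14 H2A, -2.13 for 17 H2B, -2.34 for 13 H3 and -2.15 for 12 H4 genes, and all but 1 H2B gene were lower. Adjusted for GC and length, these medians were -1.34, -1.18, -1.74, -1.44 and -1.58 in the same order of types. H3 genes made up between 9.58% and 10.4% of the histone counts in resistant libraries, against 12.0% to 12.3% in control libraries, of which HIST1H3C alone took 1.10% to 1.20%. The H2A share was higher in the resistant line, at 34.2% to 37.1%, against 32.3% to 33.2% in the control line. HIST1H2AM alone took 12.6% to 14.5% in resistant libraries and 10.4% to 11.3% in control libraries, so much of the H2A shift lay in this 1 gene. These shares are descriptions with no test.

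**Figure D3:**
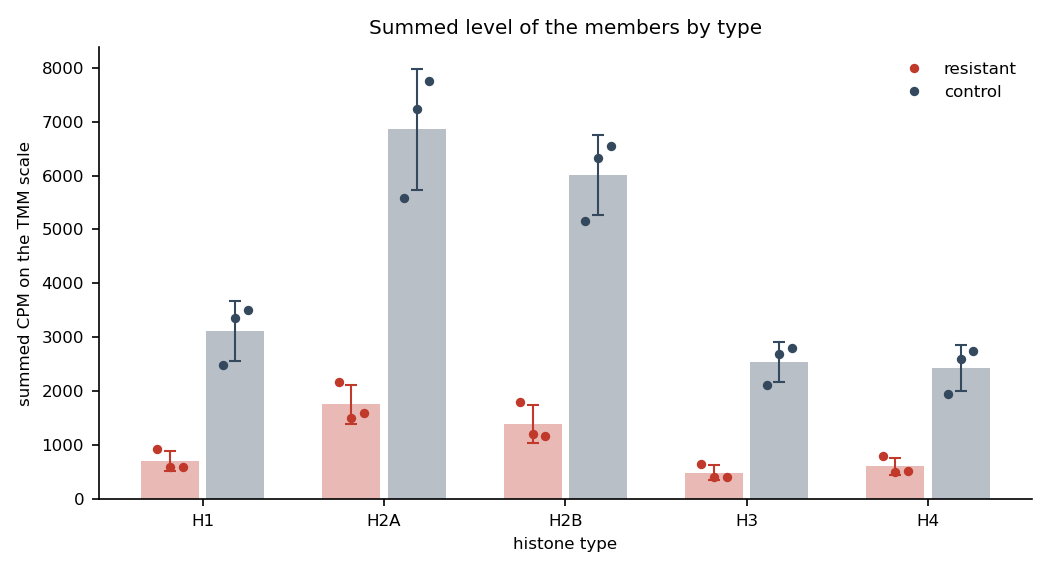
Summed level of the histone genes of each type (horizontal axis) in CPM on the TMM scale (vertical axis, from 0), resistant left of control. Bars are means, whiskers SD and points the 3 libraries of each line, which do not overlap in any type, as for H2A with 1757 ± 361 CPM in resistant and 6853 ± 1131 CPM in control libraries.

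The linker histones fell together. HIST1H1B, the H1.5 gene, had 397, 256 and 255 CPM in resistant libraries, against 1176, 1530 and 1628 CPM in control libraries (log2 fold change -2.26 ± 0.18, SE, adjusted p = 5.57e-07). HIST1H1C, the H1.2 gene, had 251, 164 and 161 CPM in resistant libraries, against 655, 1004 and 1011 CPM in control libraries (-2.21 ± 0.20, adjusted p = 1.17e-06). The H1.3 gene HIST1H1D and the H1.4 gene HIST1H1E fell by 1.90 and 1.87 on the log2 scale. After adjustment for GC and length these 4 falls were -1.24, -1.35, -1.34 and -0.77. The testis H1 gene HIST1H1T, picked after its values were seen, had 4 counts over the resistant libraries, against 69 over the control libraries, a control-to-resistant ratio of 16.7 (95% interval 6.23 to 63.0 for counting error only). HIST1H1A, the H1.1 gene, had no counts in resistant libraries and 7, 2 and 1 in control libraries, and was not tested.

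Among the H2A genes, HIST1H2AM had the highest level per length of all the genes, at 1712 CPM per kilobase in resistant and 5809 CPM per kilobase in control libraries. It had 800, 593 and 626 CPM in resistant libraries, against 1798, 2413 and 2638 CPM in control libraries, and fell by 1.76 ± 0.16 (SE) on the log2 scale (adjusted p = 9.65e-07, adjusted for GC and length -0.65). It overlaps HIST1H3J in GENCODE 29 and shares 84.0% of its stretches of 100 bases with other genes, mainly HIST1H3J, so counts of these genes may be mixed. HIST2H2AC had 380, 269 and 290 CPM in resistant libraries, against 986, 1341 and 1393 CPM in control libraries (-1.99 ± 0.16, adjusted p = 5.45e-07). HIST1H2AE and HIST2H2AB fell by 1.91 and 2.50. All 14 tested H2A genes were lower, between -2.62 for HIST1H2AB and -1.76 for HIST1H2AM. HIST1H2AD was nearly at 0, with 1 count in all 6 libraries. It overlaps another gene in GENCODE 29 and shares 97.6% of its stretches with other genes, mainly that one. HIST1H3D overlaps the same gene and shares 100% of its stretches, yet averaged 109 CPM in resistant and 465 CPM in control libraries. How reads of such overlaps were counted is not given.

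Most H2B genes followed the same course. HIST1H2BC had 281, 195 and 189 CPM in resistant libraries, against 678, 889 and 884 CPM in control libraries (-1.88 ± 0.16, adjusted p = 8.58e-07). HIST1H2BI, HIST1H2BK, HIST1H2BO and HIST2H2BF fell by 2.19, 1.90, 2.36 and 2.13. HIST1H2BM fell further, to 8.98, 6.85 and 6.41 CPM in resistant libraries, against 54.1, 65.4 and 72.5 CPM in control libraries (-3.11 ± 0.16, adjusted p = 4.54e-08, adjusted for GC and length -2.51). The smallest falls were picked after their values were seen. HIST1H2BL fell by 1.60 and HIST2H2BC, a transcribed pseudogene in RefSeq, was the 1 tested gene of the 61 not called, at 0.417, 0.210 and 0.353 CPM in resistant libraries, against 0.250, 0.553 and 0.376 CPM in control libraries (-0.26 ± 0.50, adjusted p = 0.648). Its lines overlapped.

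Among the H3 genes, which include those coding for H3.1, HIST1H3B had 188, 113 and 112 CPM in resistant libraries, against 574, 765 and 781 CPM in control libraries (-2.36 ± 0.20, adjusted p = 7.04e-07). HIST1H3F had 17.1, 9.51 and 11.5 CPM in resistant libraries, against 99.3, 90.5 and 108 CPM in control libraries (-2.96 ± 0.19, adjusted p = 1.44e-07). HIST1H3I and HIST2H3D, a gene for H3.2, fell by 2.63 and 2.07. HIST1H3A fell least of the called genes, again picked after its value was seen, with 80.3, 55.5 and 51.4 CPM in resistant libraries, against 147, 176 and 196 CPM in control libraries (-1.47 ± 0.17, adjusted p = 6.80e-06, adjusted for GC and length -0.45).

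The H4 genes code for the core histone H4. HIST1H4D had 248, 133 and 158 CPM in resistant libraries, against 561, 811 and 863 CPM in control libraries (-2.05 ± 0.22, adjusted p = 4.04e-06). HIST1H4K, which shares all of its stretches of 100 bases with other genes, mainly HIST1H4J, had 0.648, 0.537 and 0.306 CPM in resistant libraries, against 3.45, 3.76 and 3.29 CPM in control libraries (-2.81 ± 0.30, adjusted p = 3.82e-06). After adjustment for GC and length 2 called genes lost their calls, HIST1H4J, which fell by 1.77 without it (adjusted p = 0.125), and HIST2H2BB (adjusted p = 0.0769), both named after their values were seen. Genes were also counted by how much sequence they share. All 39 tested genes that share no stretch of 100 bases with another gene were lower with a median of -2.23, and all 14 that share over 50% of their stretches were lower with a median of -2.16. Adjusted for GC and length, 39 of the 39 were lower with a median of -1.65, and 12 of the 14 with a median of -1.06. The difference was not tested.

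HIST1H3C and HIST1H2BB were the exceptions in size, since next to no transcript was left in the resistant line. HIST1H3C, an H3.1 gene, had 17, 1 and 6 counts in resistant libraries, against 8359, 11456 and 12697 counts in control libraries. The control-to-resistant ratio was 1311 (95% interval 881 to 2047 for counting error only), and the log2 fold change was -10.33 ± 0.36 (SE, adjusted p = 3.12e-09), or -9.35 after adjustment for GC and length. Without resistant replicate 1, which held 17 of the 24 resistant counts, the unadjusted value was -11.50. HIST1H2BB had 1, 0 and 4 counts in resistant libraries, against 464, 508 and 603 counts in control libraries. Its ratio was 305 (95% interval 130 to 940), and its log2 fold change -8.15 ± 0.40 (adjusted p = 2.71e-08, adjusted for GC and length -7.70). Without resistant replicate 3, which held 4 of its 5 resistant counts, the unadjusted value was -9.68. In both genes the resistant libraries hold at most 17 counts and no library comes near the control level.

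These 2 genes are neighbours on chromosome 6. They point away from each other, HIST1H2BB on the minus and HIST1H3C on the plus strand, with 1754 bases between their start sites in GENCODE 29, and neither shares a stretch of 100 bases with any other gene. The genes next to them on either side kept transcripts in the resistant line. HIST1H2AB, the next gene beside HIST1H2BB, had 32.5, 15.2 and 21.2 CPM in resistant libraries, against 122, 145 and 157 CPM in control libraries, a log2 fold change of -2.62 ± 0.23. HIST1H1C, the next beside HIST1H3C, fell by 2.21, as given above. Further out, HIST1H3B, HIST1H4B, HIST1H4A and HIST1H3A fell by 2.36, 2.21, 2.43 and 1.47 on one side, and HIST1H4C and HIST1H2BC by 2.09 and 1.88 on the other. The 2 H1 genes in this region that were barely expressed in either line also had few or no resistant counts, HIST1H1T with 4 and HIST1H1A with 0, against 69 and 10 over the control libraries. The non-histone neighbours TRIM38, an E3 ubiquitin ligase gene, and HFE, the hemochromatosis gene, gave log2 fold changes of 1.40 and -1.12, and after adjustment for GC and length of 0.15 (adjusted p = 0.258, not called) and -0.52.

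**Figure D4:**
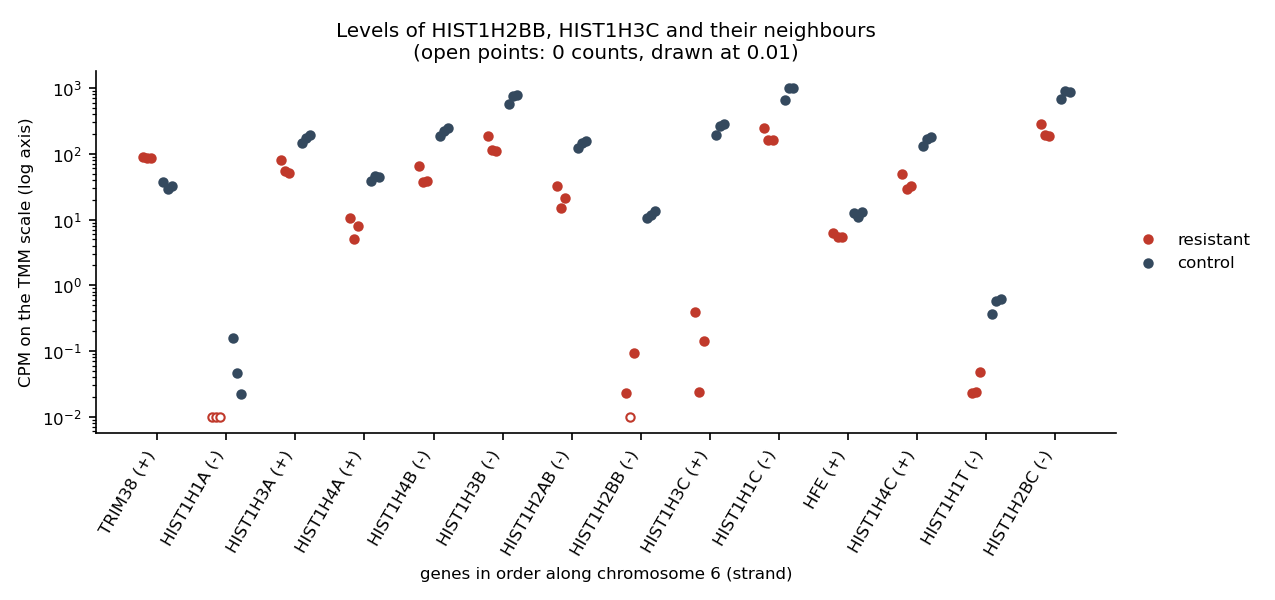
CPM on the TMM scale (vertical log axis) in each of the 3 resistant and 3 control libraries for HIST1H2BB, HIST1H3C and the genes around them in chromosome order with their strand (horizontal axis); open points are libraries with 0 counts, drawn at 0.01. HIST1H2BB and HIST1H3C lie below 0.4 CPM in every resistant library, while HIST1H2AB and HIST1H1C beside them lie above 15 CPM.

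The promoter windows of this pair of neighbours are shown because their transcripts were nearly gone, beside those of HIST1H2BM, with the next largest fall above 1 CPM, and HIST1H3A and HIST1H4D for comparison. Each runs from 250 bases before to 50 bases after the start site in RefSeq (GRCh38.p14), 5′ to 3′ on the gene's strand. Capitals mark matches on either strand to the TATA box, searched as TATAAA, the CCAAT box, searched by these letters, and the octamer ATTTGCAT bound by OCT1. The windows lie at chr6:26043664-26043963 (minus strand) for HIST1H2BB, chr6:26045134-26045433 (plus strand) for HIST1H3C, chr6:27814772-27815071 (plus strand) for HIST1H2BM, chr6:26020201-26020500 (plus strand) for HIST1H3A and chr6:26189063-26189362 (minus strand) for HIST1H4D.

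HIST1H2BB: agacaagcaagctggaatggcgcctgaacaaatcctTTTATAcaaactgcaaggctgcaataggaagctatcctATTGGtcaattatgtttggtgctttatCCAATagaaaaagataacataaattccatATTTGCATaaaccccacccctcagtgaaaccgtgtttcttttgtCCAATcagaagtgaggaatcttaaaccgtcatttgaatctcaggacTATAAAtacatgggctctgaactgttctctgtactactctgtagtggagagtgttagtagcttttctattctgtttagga
HIST1H3C: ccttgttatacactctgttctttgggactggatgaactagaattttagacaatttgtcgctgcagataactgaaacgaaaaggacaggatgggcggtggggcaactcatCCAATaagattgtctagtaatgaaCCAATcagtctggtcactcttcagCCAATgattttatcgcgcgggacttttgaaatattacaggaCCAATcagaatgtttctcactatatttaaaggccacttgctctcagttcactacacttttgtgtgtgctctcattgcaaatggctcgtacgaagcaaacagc
HIST1H2BM: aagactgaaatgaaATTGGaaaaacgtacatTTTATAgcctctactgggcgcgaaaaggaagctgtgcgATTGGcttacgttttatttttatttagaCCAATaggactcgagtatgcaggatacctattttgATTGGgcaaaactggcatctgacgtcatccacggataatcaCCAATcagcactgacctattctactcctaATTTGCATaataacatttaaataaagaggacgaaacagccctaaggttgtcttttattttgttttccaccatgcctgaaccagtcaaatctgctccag
HIST1H3A: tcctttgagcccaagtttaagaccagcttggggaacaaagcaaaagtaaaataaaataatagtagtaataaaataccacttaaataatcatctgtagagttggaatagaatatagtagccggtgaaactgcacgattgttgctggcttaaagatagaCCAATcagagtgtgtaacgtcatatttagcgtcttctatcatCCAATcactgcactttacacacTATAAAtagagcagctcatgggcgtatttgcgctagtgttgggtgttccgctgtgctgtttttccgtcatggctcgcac
HIST1H4D: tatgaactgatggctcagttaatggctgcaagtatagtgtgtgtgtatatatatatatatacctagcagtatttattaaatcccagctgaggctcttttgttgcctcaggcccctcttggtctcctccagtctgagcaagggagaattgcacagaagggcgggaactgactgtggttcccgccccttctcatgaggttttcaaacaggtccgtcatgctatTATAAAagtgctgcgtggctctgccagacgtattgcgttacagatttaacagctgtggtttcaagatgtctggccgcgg

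HIST1H2BB holds 1 octamer, 3 CCAAT and 2 TATAAA matches, and HIST1H3C holds 4 CCAAT matches and no match to the others. RefSeq windows were found for 65 of the 75 genes. TATAAA was in 44 of the 65 (67.7%), against 11.5% of all 35116 promoter windows of the same length. CCAAT was in 55 of the 65 (84.6%), against 34.6% of all windows, and it was in the window of every H1, H2A, H2B and H3 gene but in only 3 of 13 H4 genes. The octamer was in 11 of 16 H2A, 14 of 18 H2B and 1 of 12 H3 genes and in no H1 or H4 gene, against 1.77% of all windows. The H3 match, in HIST1H3D, lies in a window identical to that of HIST1H2AD, and the other HIST1H3D window has no octamer. A gene with several windows counted if any of them matched, while the shares of all windows are per window. A match is a description and not a site in use. Median log2 fold changes by motif were -2.16 over 22 tested genes with the octamer and -2.21 over 32 without, and -2.21 over 45 with CCAAT and -2.05 over 9 without. The genes without CCAAT are all H4 genes, so this split cannot be told apart from one by type. With TATAAA the median was -2.10 over 38 tested genes, and without it -2.21 over 16. These differences were not tested.

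Head-to-head H2A and H2B genes share the DNA between their starts. Most such partners fell by like amounts, but so did most of the 61 tested genes. There were 14 such pairs with start sites within 1000 bases, and both genes were tested in 10. The partners' log2 fold changes differed by a median of 0.25, against 0.32 for any pair of the 61 tested genes. HIST1H2AG and HIST1H2BJ fell by 2.19 and 2.23, and HIST1H2AK and HIST1H2BN, which overlap, by 2.16 and 2.13. The widest differences were in HIST2H2AA4 and HIST2H2BC, at -2.11 and -0.26, and in HIST1H2AJ and HIST1H2BM, at -1.90 and -3.11. Next came HIST1H2AI and HIST1H2BL, at -2.39 and -1.60, and HIST1H2AM and HIST1H2BO, at -1.76 and -2.36. HIST2H2BC, a transcribed pseudogene, had mean levels of only 0.327 and 0.393 CPM in resistant and control libraries, and an SE of 0.50. HIST2H2AA4 shares 96.8% of its stretches of 100 bases with other genes, mainly HIST2H2AA3, so this difference is uncertain. HIST1H2AJ had 107, 73.1 and 77.1 CPM in resistant libraries, against 267, 335 and 363 CPM in control libraries, and shares 80.9% of its stretches of 100 bases with other genes, mainly HIST1H2AI, so its counts are uncertain. No difference within a pair was tested.

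**Figure D5:**
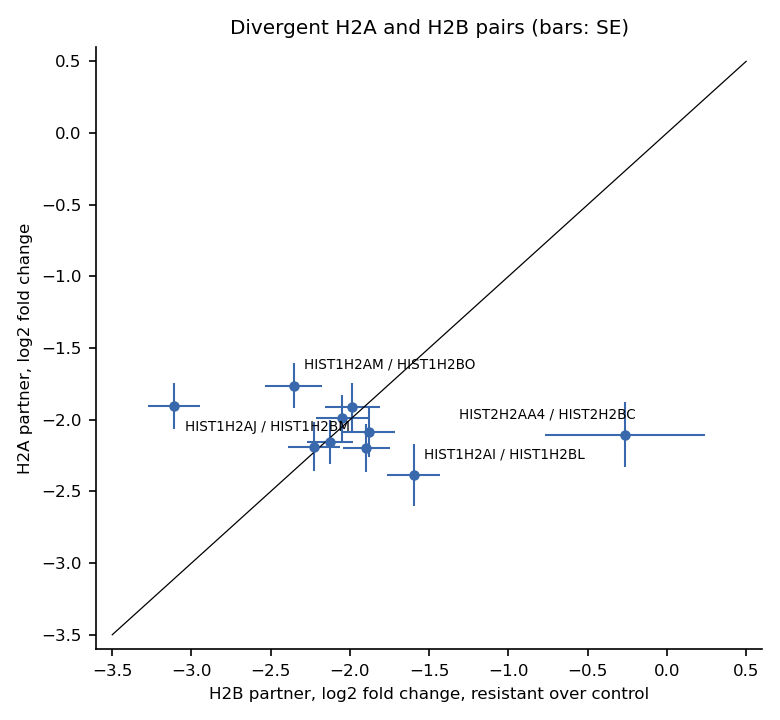
Log2 fold change (resistant over control) of the H2A partner (vertical axis) against the H2B partner (horizontal axis) for the 10 head-to-head pairs with both genes tested, with bars for the SE and a line of equal change. Most pairs lie near the line around -2, and the named pairs lie farther from it, up to a difference of 1.84 for the pair with the pseudogene HIST2H2BC.

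Of 34 genes that make, process and degrade histone mRNA, 15 (44.1%) were higher and 12 (35.3%) lower, near the 39.3% and 36.9% of all genes tested. Of 6 transcription factors and cofactors tested, 4 rose and 1 fell. NPAT rose to 45.0 ± 8.58 CPM in resistant libraries, against 12.3 ± 1.85 CPM in control libraries (SD, n = 3 each, log2 fold change 1.88, edgeR adjusted p = 8.39e-07, adjusted for GC and length 0.52). CASP8AP2, another histone locus body protein gene, POU2F1 and GON4L rose by 2.18, 1.47 and 0.30 on that scale (0.84, 0.19 and 0.36 after adjustment). HINFP fell by 0.92 with no call after adjustment for GC and length (adjusted p = 0.113), and YY1 gave 0.01 (adjusted p = 0.966).

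Of 17 genes of 3′ end formation, 9 fell and 5 rose, with a median log2 fold change of -0.44. Of all genes tested, 36.9% were lower and 39.3% higher. After adjustment for GC and length 10 of the 17 were lower and 2 higher, with a median of -0.32, beside 32.6% and 34.4% of all genes. CPSF2 and CPSF3 were higher without the adjustment, at 1.19 and 0.36, and lower with it, at -0.32 and -0.29. SYMPK and SRRT fell by 1.13 and 1.10, and neither was called after adjustment for GC and length (adjusted p = 0.284 and 0.563). LSM10 and SNRPB, subunits of the Sm ring of U7 snRNP, fell by 1.54 and 1.43 (adjusted -0.60 and -0.37), while SNRPD3 and NCBP2 rose by 0.82 and 1.11 (adjusted 1.19 and 0.39). SLBP, named for its role and after its value was seen, fell by 0.52 on the log2 scale, with 71.2 ± 2.20 CPM in resistant libraries, against 102 ± 2.34 CPM in control libraries (SD, n = 3 each, edgeR adjusted p = 3.42e-04, adjusted for GC and length -0.40). Of 11 genes of histone mRNA degradation 6 rose and 2 fell, with a median of 1.31, and 6 rose and 1 fell after adjustment, with a median of 0.31. The exonuclease gene XRN1, the decapping enzyme gene DCP2, the uridylyltransferase gene ZCCHC11 and the kinase genes ATR and SMG1 rose by 2.23, 1.95, 1.73, 1.84 and 1.31. After adjustment for GC and length these 5 stayed called, at 0.90, 0.50, 0.53, 0.56 and 0.31. The helicase gene UPF1 fell by 1.29, with no call after adjustment (adjusted p = 0.101).

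Most genes of S phase were lower too. Of 27 tested, 16 fell and 2 rose with a median log2 fold change of -0.68, beside 36.9% lower and 39.3% higher of all genes tested. After adjustment for GC and length 23 fell and 1 rose with a median of -0.57, beside 32.6% and 34.4% of all genes. GINS2, a subunit of the replicative helicase, fell to 22.5 ± 1.01 CPM in resistant libraries, against 90.8 ± 9.23 CPM in control libraries (SD, n = 3 each, log2 fold change -2.01, edgeR adjusted p = 7.79e-08, adjusted for GC and length -1.92). The licensing factor gene CDT1 and the thymidine kinase gene TK1 fell by 2.47 and 2.07 (adjusted for GC and length -1.06 and -0.76), and the helicase genes MCM5 and MCM2 by 1.96 and 1.59 (adjusted -0.91 and -0.58). E2F1 fell by 1.52 and was not called after the adjustment (-0.11, adjusted p = 0.197). MKI67, a gene of proliferating cells picked after its value was seen, gave 0.07 (adjusted p = 0.644) and -0.31 after adjustment for GC and length (adjusted p = 0.0209). The share of cells in S phase was not measured, and the part of the S phase genes in the histone falls was not tested.

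Chaperones that carry new histones were mixed, with 9 of 21 tested lower, 9 higher and a median of 0.11. Of all genes tested, 36.9% were lower and 39.3% higher. After adjustment for GC and length 7 chaperone genes were lower and 6 higher, beside 32.6% and 34.4% of all genes in that fit. ASF1B, the chromatin assembly subunit gene CHAF1B and the importin gene IPO4 fell by 1.95, 1.43 and 1.99 (adjusted -0.96, -1.47 and -0.50). NPM1 and ATRX rose by 1.28 and 2.43 (adjusted 0.47 and 0.85), and MMS22L rose by 1.30 with no call after the adjustment (-0.01, adjusted p = 0.902). Of the 9 tested replacement histone genes, which lie outside the clusters and mostly give polyadenylated mRNA, 6 were lower and 0 higher with a median of -0.67, against -2.19 in the clusters. H2AFX, the H2A.X gene, which can also give a stem-loop mRNA, fell by 2.16 on the log2 scale, with 78.8 ± 22.8 CPM in resistant libraries, against 352 ± 48.7 CPM in control libraries (SD, n = 3 each, edgeR adjusted p = 8.65e-07, adjusted for GC and length -0.55). The linker gene H1FX, H2AFJ, the centromere gene CENPA, H2AFZ and H2AFY fell by 2.05, 1.47, 0.79, 0.67 and 0.25. After adjustment for GC and length 5 of the 9 were lower and 3 higher, with a median of -0.42, against -1.41 in the clusters. H1FX, CENPA and H2AFZ stayed lower at -0.42, -0.83 and -0.94, H2AFJ was no longer called (-0.25, adjusted p = 0.157), and H2AFY was among the higher at 0.39. The difference between clustered and replacement genes was not tested.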

How the data were processed

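Total RNA of the resistant and control lines was sequenced as 3 libraries each. The authors deposited raw counts per gene symbol, 1 column per library, and 0 sample columns were left unused. HISAT2 2.0.4 was among the tools, per the submitters' processing notes. How reads were counted (program, strand, annotation) and against which genome build is not given in the sources used here. Reads of overlapping or near-identical genes may be mixed, split or dropped.

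Libraries were grouped by title and phenotype label. The histone genes and all gene lists were chosen with earlier results of these data known. Genes were kept by filterByExpr (16642 of 54261), scaled by TMM and tested by quasi-likelihood in edgeR 4.0.16 (R 4.3.3), with Benjamini-Hochberg adjustment over all genes at 0.05. Each SE is the size of the log2 fold change divided by the root of F. CPM are on the TMM scale (factors 1.12 to 1.14 in resistant and 0.867 to 0.912 in control libraries). For the GC and length adjustment, splines with 6 degrees of freedom for GC content and 5 for log2 length, both from GENCODE 29 transcripts, were removed from each library as an offset, over the 85.3% of tested genes with both values. Summed levels by cluster, by type and by list have no test of their own. Intervals and limits for 0 counts hold for counting error alone, as PCR copies are not separate molecules.

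The genes named are the 10 HIST1, 4 HIST2, 2 HIST3 and 1 HIST4 genes with the highest level per length, the 6 largest decreases among called genes averaging 1 CPM or more (there were no increases), the H1 genes above that level, the head-to-head pairs, and up to 6 genes with the smallest p of each other list. Others are marked as picked after their values were seen, are the extremes of a type or share a stated property, or are given by position, as are HIST1H1A and the neighbours of HIST1H2BB and HIST1H3C. Of the HIST3 genes only 1 had counts. Alternatives were RLE, upper-quartile and library-size scaling, other low-count filters, DESeq2 1.42.0, leaving out each library, a replicate block and the GC and length adjustment.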

Additional observations from a re-analysis of the deposited data

How the results depend on the processing

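Between 58 and 63 histone genes were lower and 0 higher under all scalings, filters, tests and left-out libraries tried, and the 23 tested genes that the naming rule picks by level, decrease or H1 type kept direction and call. Outside that rule HIST1H4J and HIST2H2BB lost their calls after GC and length adjustment, and HIST2H2BC was called neither with nor without it. The adjustments by the coding part and without resistant replicate 1 were chosen after seeing the data. Same-numbered libraries did not deviate together (correlations -0.15, -0.02 and -0.07), and with a replicate block 60 genes were lower. With library size as the only scaling, the median log2 fold change was 0.39 over all genes and -1.84 over the 61 histone genes. That scaling gave log2 ratios of summed CPM of -1.73 for all members, -1.73 for HIST1, -1.74 for HIST2, -1.79 for H1, -1.62 for H2A, -1.76 for H2B, -2.02 for H3 and -1.65 for H4. It also gave 7 lower machinery genes (12 otherwise), 9 higher S phase genes (2 otherwise) and 2 higher replacement histone genes (0 otherwise). Higher S phase genes numbered 1 in all 4 GC and length adjusted fits and 1 to 3 when a library was left out (1 without control replicate 2). Higher replacement genes numbered 3 in the GC and length adjusted fits, 2 in the one with the replicate block. Lower S phase genes numbered 25 in the adjusted fit without resistant replicate 1. The causes were not tested. Low counts limit the folds of HIST1H3C and HIST1H2BB, with at most 17 and 4 counts in a resistant library, and of the HIST3 genes.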
